A study of Homo sapiens with 12 samples.

Results

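The genes described here are the collagens, the matrix metalloproteinases (MMPs), the ADAMTS proteases and the ADAMTS-like proteins, and the measurement is the histone mark H3K27me3 near their transcription start sites in T24 cells. A gene was included when its symbol carried one of these family names and when at least 1 of the 4 libraries had an H3K27me3 peak with its centre within 10 kb of the gene's start site on an autosome. In all, 72 of the 18105 autosomal genes with such a peak met the rule: 33 collagens, 16 MMPs, 16 ADAMTS proteases, 5 ADAMTS-like proteins, the pseudogene ADAMTS7P1 and the antisense transcript ADAMTS9-AS2. The rule used family names and the presence of a peak in any library, so 6 genes entered only through peaks in libraries with GSK-126 and 11 only through peaks in libraries without it, and for these the difference with GSK-126 is partly set by the rule. Just inside the 10 kb limit, the nearest peak centres lay 9548 bp from COL28A1, 8797 bp from COL10A1 and 8306 bp from ADAMTS4. Just outside it, the nearest centres lay 10356 bp from MMP3, 13450 bp from MMP13 and 14234 bp from COL3A1.

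H3K27me3 is laid down by the Polycomb repressive complex whose catalytic subunit is EZH2, and broad domains of the mark cover many developmental and tissue-restricted genes that a cell keeps silent. Collagens form the fibrils, networks and basement membranes of the extracellular matrix, and most are made by fibroblasts, cartilage cells and other stromal cells rather than by urothelial cells. MMPs and ADAMTS proteases cleave or mature that matrix, and several are studied in bladder cancer for their part in invasion.

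T24 is an established cell line from a human urinary bladder cancer. Cells received the DMSO vehicle (the labels give no exposure time for it), the EZH2 inhibitor GSK-126 at 5 µM for 72 h, the synthetic retinoid fenretinide at 5 µM for 72 h, or both drugs together at 5 µM each for 72 h. Each condition had 1 H3K27me3 library, which leaves the differences without a replicate check and without p-values, and intervals cover counting error only. A single cell line was used, and the sources used here name no spike-in chromatin. The series also lists input and RNA samples, which were not analysed here.

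Consensus intervals held 17133107 fragments in the vehicle library, 16156194 after GSK-126, 18928836 after fenretinide and 15812933 after both drugs. A gene's value is the number of fragments in the consensus intervals that overlap its peaks, and a ratio compares the shares of all interval fragments in 2 libraries. The word higher is used for a ratio of 2 or more and the word lower for 0.5 or less, provided that the exact 95% interval excluded 1 and the compared libraries gave 50 fragments or more together. Because the shares add up to the same total in each library, a loss over the whole genome would not show in them. An alternative that equalises the 25% of intervals with the fewest fragments per kb moved the median of all genes by -0.77 on the log2 scale with GSK-126, by -0.13 with fenretinide and by -0.81 with the combination. It multiplies every ratio against vehicle by 0.588 with GSK-126, by 0.911 with fenretinide and by 0.569 with the combination, so a ratio near 1 on library shares becomes a fall under it.

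The 72 genes drew on 174 consensus intervals over 1556.61 kb. Their intervals took 0.181% of the vehicle library's interval fragments, 0.0975% after GSK-126, 0.152% after fenretinide and 0.103% after both drugs. Both libraries with GSK-126 were low and both without it were high. Peaks within 10 kb were fewest with GSK-126 alone: 59 of the genes had one in the vehicle library, 48 after GSK-126, 61 after fenretinide and 57 after both drugs. As shares these were 81.9%, 66.7%, 84.7% and 79.2%, beside 76.9%, 66.2%, 78.4% and 78.8% of the 18105 genes, so GSK-126 alone was lowest there too. The libraries had 212277, 217751, 234815 and 274393 peaks in all. Peak length summed to 494 kb, 285 kb, 502 kb and 338 kb in that order of libraries, and 38 genes had a peak in all 4. Those 38 are among the 59 genes measured with GSK-126 against vehicle, beside 8349 of all 14078 genes measured. A peak covered the start site itself for 31, 23, 23 and 26 genes. The share of interval fragments, summed peak length and peaks over the start site were not counted for all genes, so these values are descriptions only. A missing peak can hide signal, because the rule uses the peak's centre: MMP28, MMP9 and COL5A3 had no vehicle peak named for them and centred within 10 kb, yet their intervals held 1137, 3298 and 3044 vehicle fragments.

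With GSK-126 against vehicle, 59 of the 72 genes reached the minimum of 50 fragments, and 27 of these were lower and 2 higher. Among all 14078 genes measured, 42.1% were lower and 11.1% higher, so the lower share of these genes, 45.8%, was close to the background. Their median log2 ratio was -0.96, with a 95% order-statistic interval of -1.27 to -0.67 over genes, against -0.80 for all genes. The other 13 genes were under the minimum: COL1A2, COL10A1, COL17A1, MMP11, MMP12, MMP15, MMP20, ADAMTS4, ADAMTS5, ADAMTS18, ADAMTSL1, ADAMTSL4 and ADAMTSL5. The 38 genes with a peak in every library held 14 lower and 1 higher (median -0.85), beside 34% and 6.46% of all genes with such peaks (median -0.65). With the alternative scaling above, 48 of the 59 measured were lower and 1 higher, beside 69.4% and 7% of all genes. Of the 12 MMPs measured, 8 were lower and none higher, with a median of -1.35. Of 30 collagens, 12 were lower and 1 higher (median -0.96), and of 17 ADAMTS and ADAMTS-like genes 7 were lower and 1 higher (median -0.83). By role, the alternative scaling gave 10 of 10 fibril-associated collagens lower, 9 of 9 secreted MMPs, 3 of 3 membrane-type MMPs, 3 of 3 basement membrane collagens, 5 of 7 fibrillar and 0 of 3 transmembrane collagens. These counts are descriptions of 2 libraries, and the difference between families was not tested.

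**Figure D1:**
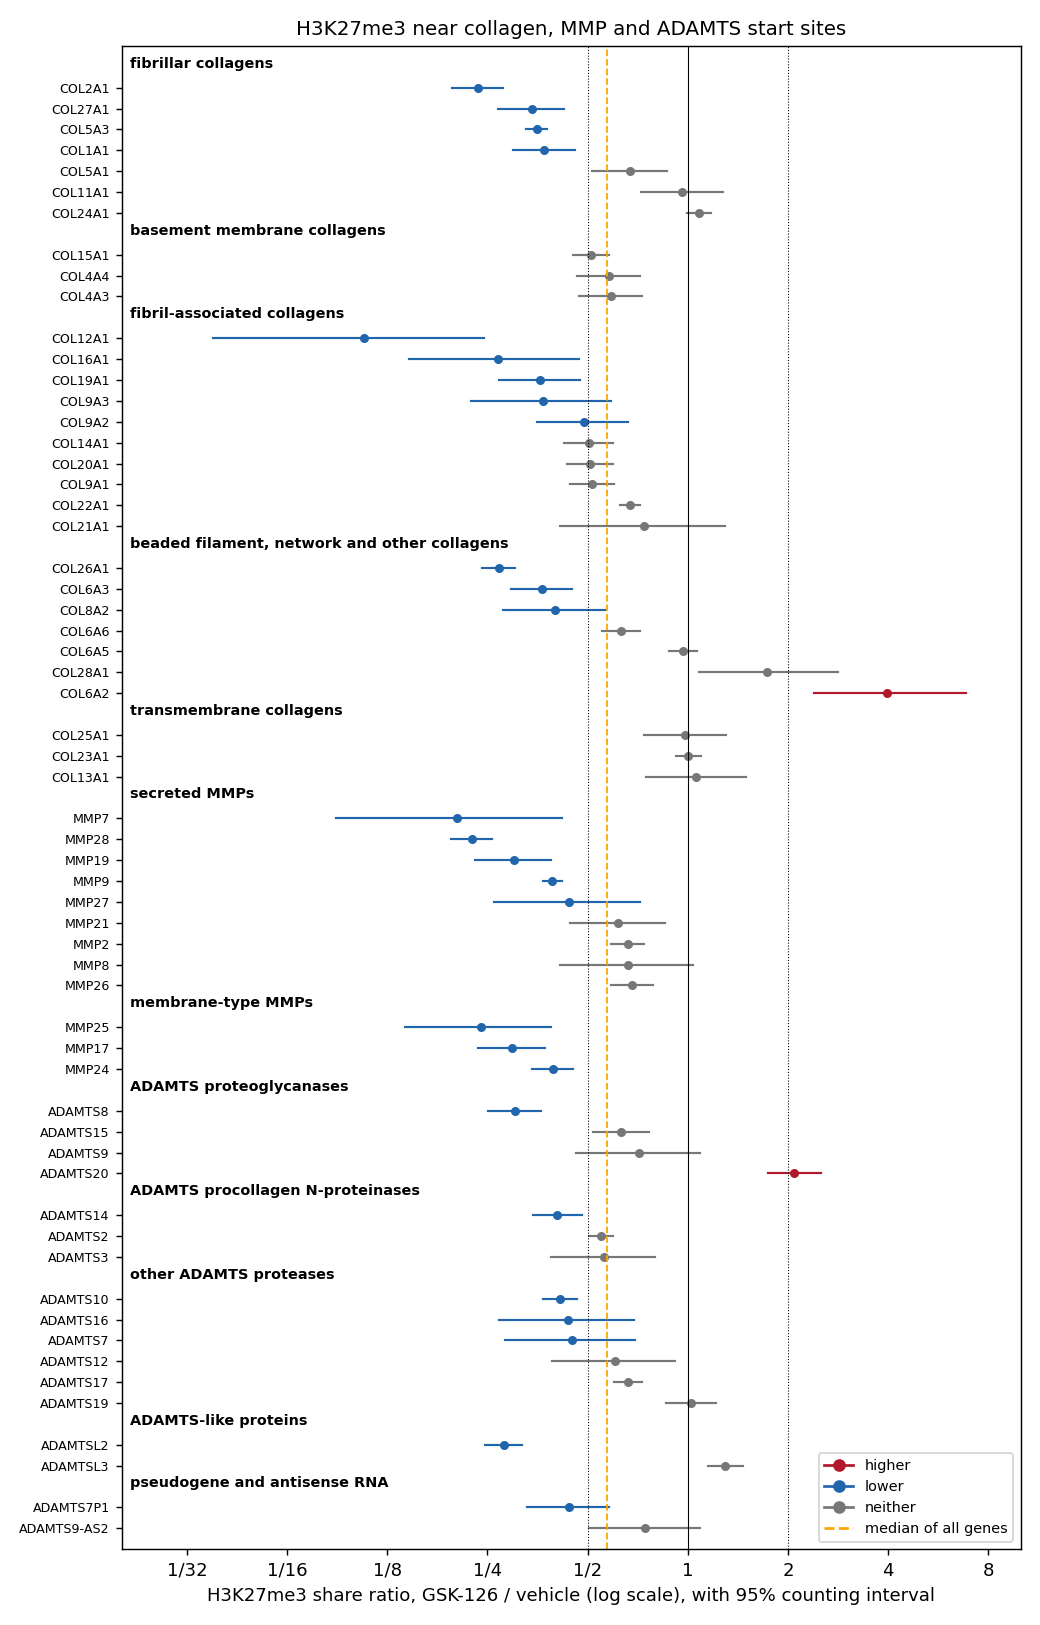
Ratio of H3K27me3 shares, GSK-126 over vehicle, on a log scale for the 59 measured genes, grouped by role; points are ratios, bars are exact 95% counting intervals, dotted lines mark 0.5 and 2 and the dashed line marks the median of all genes. The 3 membrane-type MMPs lie below 0.5, the 3 transmembrane collagens lie near 1, and COL6A2 and ADAMTS20 lie above 2 on library shares.

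Among the fibrillar collagens, whose chains assemble into the banded fibrils of connective tissue, 4 of 7 measured were lower with GSK-126. COL2A1, the collagen of cartilage, gave 717 fragments in the vehicle library, 158 after GSK-126, 497 after fenretinide and 264 after both drugs, in intervals shared with LOC728114. Its ratio with GSK-126 was 0.234 (95% counting interval 0.195 to 0.278), the lowest of the fibrillar group. Both libraries with GSK-126 were low, fenretinide alone lay in between, and the combination held more than GSK-126 alone (ratio 1.71, interval 1.4 to 2.09). COL1A1, a chain of the main collagen of skin and bone, gave 349, 122, 230 and 110 fragments in the same order of libraries. Its ratio was 0.371 (0.299 to 0.457) with GSK-126 and 0.597 (0.503 to 0.707) with fenretinide, which does not reach the 2-fold limit. Its partner chain COL1A2 had too few fragments to call, with 22, 6, 24 and 10. COL5A3, a minor fibril chain, lay in an interval of 112 kb that also serves OLFM2 and RDH8. It held 3044, 1009, 2661 and 1237 fragments, a ratio of 0.352 (0.327 to 0.378) with GSK-126, and these reads cannot be assigned to one of the 3 genes. COL27A1 was also lower at 0.339. By contrast COL24A1, a fibrillar collagen of developing bone, gave 1085, 1107, 1339 and 1050 fragments, a ratio of 1.08 (0.994 to 1.18) with GSK-126. All 4 libraries of COL24A1 were within 1.12-fold of vehicle. COL11A1 stood at 0.961 (0.723 to 1.28) and COL5A1 at 0.669 (0.517 to 0.864).

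The fibril-associated collagens, which sit on the surface of fibrils, had 5 of 10 genes lower with GSK-126 and none higher. COL12A1 fell from 60 vehicle fragments to 6, with 65 under fenretinide and 15 under the combination. That ratio of 0.106 (0.0374 to 0.245) was the lowest of all 59 genes, on few fragments. COL12A1 had no peak within 10 kb in the GSK-126 library. It reached the minimum through its vehicle fragments, where it is high, so its ratio is a description. COL16A1 gave 63, 16, 41 and 11 fragments (0.269 with GSK-126) and COL19A1 gave 206, 70, 210 and 121 (0.360). COL16A1 was included only through peaks in the vehicle and fenretinide libraries, where it is high, so its ratio is a description. Of the type IX chains of cartilage, COL9A3 was lower at 0.368 and COL9A2 at 0.486. Their partner COL9A1 was just above the limit at 0.517 (0.443 to 0.602), as were COL14A1 at 0.505 and COL20A1 at 0.510. COL20A1 had the densest vehicle signal but one, at 39 fragments per kb, and was not called. COL21A1 gave the highest ratio of the group, 0.739 (0.414 to 1.30).

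Among the beaded-filament, network and other collagens, 3 of 7 were lower and 1 higher. COL26A1 gave 1429, 364, 1353 and 500 fragments in intervals shared with RABL5, a ratio of 0.270 (0.240 to 0.303) with GSK-126. COL6A3 (0.364) and the network collagen COL8A2 (0.400) were also lower. The type VI chains form beaded microfibrils in most tissues and had ratios on both sides of 1. COL6A2 gave 20 fragments in the vehicle library, 75 after GSK-126, 11 after fenretinide and 46 after both drugs, a ratio of 3.98 (2.40 to 6.88) with GSK-126. It had no peak within 10 kb with vehicle or fenretinide and was included only through its peaks in the libraries with GSK-126, where it is high, so its ratio is a description. COL6A5 (0.968, 0.879 to 1.06) and COL6A6 (0.630, 0.551 to 0.720) were not called.

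On library shares the basement membrane and transmembrane collagens held no called gene. Of the basement membrane group, COL15A1 gave a ratio of 0.512 (0.453 to 0.578) with GSK-126, COL4A4 0.579 and COL4A3 0.587. The alternative scaling put all 3 in the lower class, at 0.301 (0.266 to 0.340), 0.340 (0.273 to 0.423) and 0.345 (0.278 to 0.428). COL4A3 and COL4A4 are transcribed from neighbouring start sites and share an interval, so their values are not independent. The main basement membrane chains COL4A1 and COL4A2 had no consensus interval anywhere over their joint 364 kb on chromosome 13, and COL7A1, the anchoring fibril collagen, had none centred in its gene. Transmembrane collagens carry a collagenous outer part and stay attached to the cell surface. Their ratios were 0.980 (0.737 to 1.30) for COL25A1, 1.00 (0.923 to 1.09) for COL23A1 and 1.06 (0.75 to 1.5) for COL13A1. Under the alternative scaling these were 0.577, 0.591 and 0.624, and none was called. COL17A1, the hemidesmosome collagen of the urothelium and epidermis, was under the minimum with 0 fragments in the vehicle library, 33 after GSK-126, 1 after fenretinide and 17 after both drugs. Its interval of 2.18 kb was a called peak in the GSK-126 library only, through which the gene was included, so these counts are a description.

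All 3 measured membrane-type MMPs, which are tethered to the cell surface, were lower with GSK-126. MMP25 gave 93 fragments in the vehicle library, 21 after GSK-126, 68 after fenretinide and 25 after both drugs (ratio with GSK-126 0.239, 0.142 to 0.388). MMP25 was included only through peaks in the vehicle and fenretinide libraries, where it is high, so its ratio is a description. MMP17 gave 351, 98, 279 and 115 (0.296, 0.234 to 0.371), and MMP24 gave 732, 271, 581 and 288 (0.393, 0.340 to 0.452). In each of them vehicle was highest, fenretinide second, and the libraries with GSK-126 were lowest. MMP15 was under the minimum, and MMP14, the best known activator of MMP2 at the cell surface, had no consensus interval centred in its gene.

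Of the 9 secreted MMPs measured, 5 were lower and none was higher. MMP28 gave 1137, 241, 921 and 250 fragments over 39.2 kb shared with C17orf50, a ratio of 0.225 (0.195 to 0.259). MMP9, the gelatinase that cleaves type IV collagen, had the densest vehicle signal of all 59 genes, with 40.7 fragments per kb. It gave 3298, 1217, 2837 and 1264 fragments (0.391, 0.366 to 0.418), in intervals shared with SLC12A5 and ZNF335. MMP19 gave 272, 77, 217 and 88 (0.300, 0.230 to 0.388), and the intervals of MMP19 are shared with an uncharacterised locus. MMP2, the other gelatinase, gave 751, 467, 722 and 455 in an interval shared with LPCAT2, a ratio of 0.659 (0.586 to 0.741), which did not reach 2-fold. The counting intervals of the MMP9 and MMP2 ratios do not overlap. MMP21, MMP8 and MMP26 stood between 0.616 and 0.680.

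**Figure D2:**
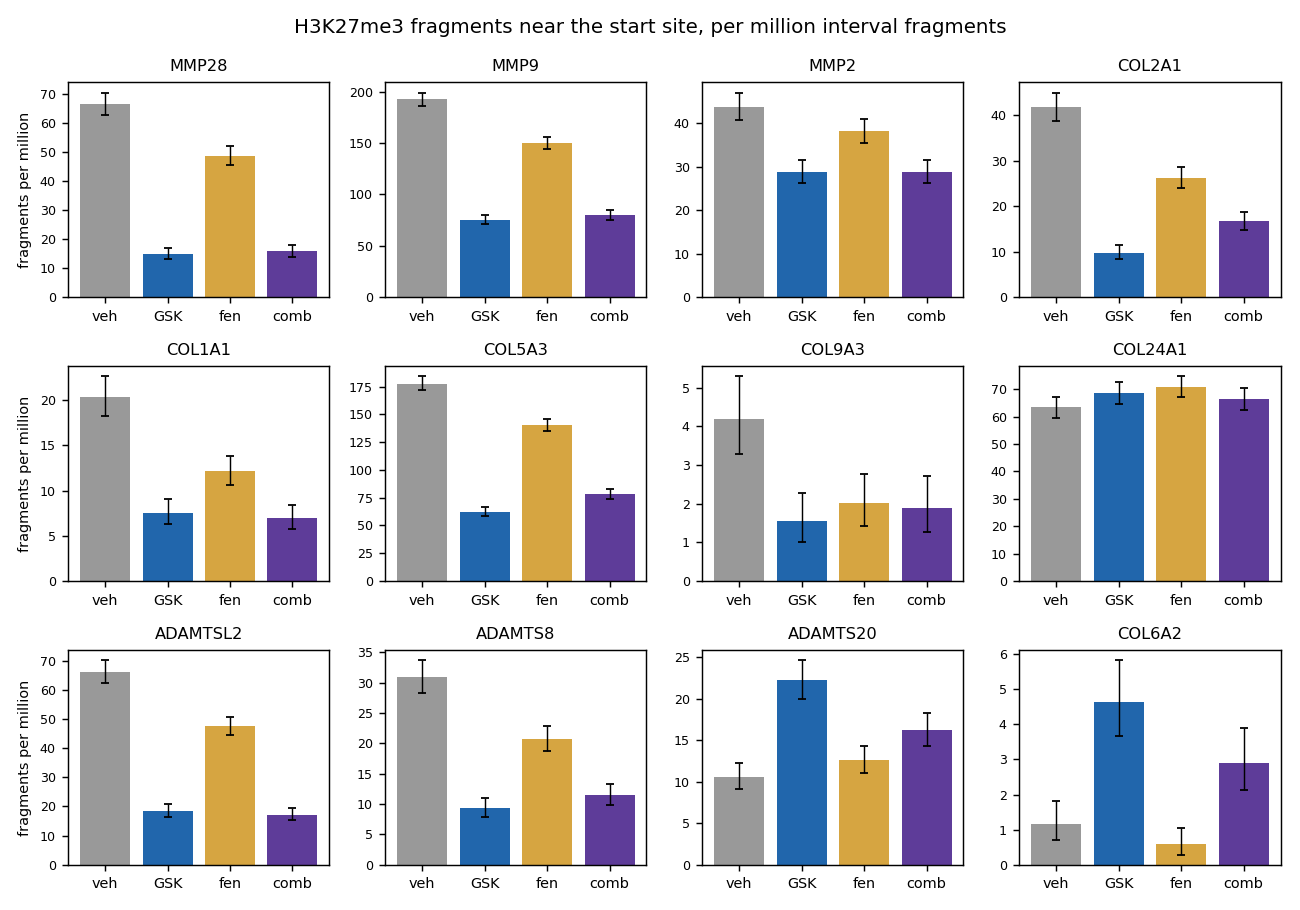
H3K27me3 fragments near the start site, scaled to the interval fragments of each library, in the 4 libraries (veh, vehicle; GSK, GSK-126; fen, fenretinide; comb, combination) for 12 genes, with exact 95% Poisson intervals and a separate axis for each gene. In MMP28, MMP9, COL5A3, ADAMTSL2 and ADAMTS8 both libraries with GSK-126 are low, COL24A1 is level, and ADAMTS20 and COL6A2 are highest with GSK-126.

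A run of 9 MMP genes on chromosome 11 (GRCh38, chr11:102520508-102955732), from MMP7 to MMP13, held ratios on both sides of 1. MMP7, a small secreted MMP of epithelia, gave 47, 9, 34 and 19 fragments (ratio with GSK-126 0.203, 0.0875 to 0.419), and MMP27 gave 58, 24, 66 and 31 (0.439). The 15 intervals tied to start sites in the run summed to 169, 74, 163 and 101 fragments, a ratio of 0.464 (0.348 to 0.614). The peaks that tied these intervals to MMP7, MMP8, MMP12, MMP20 and MMP27 included none from the GSK-126 library. For MMP20 and MMP27 there was none from the combination library either. The ratio of 0.464, and its contrast with the rest of the run, is thus partly set by the rule. The other 28 intervals of the same run gave 512, 833, 560 and 851 fragments, a ratio of 1.73 (1.54 to 1.93) that does not reach 2. The ratio over the whole run was 1.41 (1.28 to 1.56). Under the alternative scaling these were 0.273 (0.205 to 0.361) near start sites, 1.01 (0.908 to 1.14) for the other intervals and 0.831 (0.751 to 0.919) over the run, so the direction of the whole run depends on scaling. Within it, MMP1, MMP3, MMP10 and MMP13 had no peak named for them and centred within 10 kb of their start.

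Of the 4 ADAMTS proteoglycanases measured, which cut aggrecan and versican, 1 was lower and 1 higher. ADAMTS8 gave 530, 151, 393 and 182 fragments (0.302, 0.25 to 0.363). Its neighbour ADAMTS15 gave 287, 171, 252 and 131 (0.632, 0.520 to 0.766) on the same stretch of chromosome 11. ADAMTS20 went the other way, with 182 fragments in the vehicle library, 359 after GSK-126, 239 after fenretinide and 256 after both drugs. Of its 2 intervals, 1 went from 71 to 279 with GSK-126 and the other from 111 to 80. The ratio of ADAMTS20 was 2.09 (1.75 to 2.51) with GSK-126 and 1.52 (1.26 to 1.85) with the combination. Under the alternative scaling these were 1.23 (1.03 to 1.48) and 0.867 (0.714 to 1.05). The GSK-126 ratio of COL6A2 was then 2.34 (1.41 to 4.04), with the limit of its inclusion given above. ADAMTS5, the main aggrecanase of cartilage, was under the minimum with 26, 6, 8 and 3 fragments, and ADAMTS1 had no peak named for it and centred within 10 kb.

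Among the procollagen N-proteinases, which trim the amino end of fibrillar procollagens, ADAMTS14 was lower with 499, 191, 406 and 196 fragments (0.406, 0.342 to 0.481). ADAMTS2 (0.548, 0.504 to 0.596) and ADAMTS3 (0.559, 0.387 to 0.798) fell short of 2-fold. Of the 6 other ADAMTS proteases measured, 3 were lower: ADAMTS10, which binds fibrillin, at 0.413, ADAMTS16 at 0.437 and ADAMTS7 at 0.448. ADAMTS10 shares intervals with MYO1F. ADAMTS19 was not called, with 273, 264, 289 and 244 fragments (1.03, 0.863 to 1.22). The pseudogene ADAMTS7P1 was lower at 0.439, and its reads may be hard to tell from those of ADAMTS7, a near relative. ADAMTS9-AS2 shares intervals with ADAMTS9 and was not called (0.742, 0.504 to 1.08).

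The ADAMTS-like proteins lack the protease domain, and ADAMTSL2 and ADAMTSL3 were the 2 measured. ADAMTSL2, which binds fibrillin microfibrils, gave 1133, 299, 898 and 272 fragments (0.280, 0.246 to 0.318) in an interval that also serves TMEM8C. ADAMTSL3 gave 502, 614, 536 and 554 (1.30, 1.15 to 1.46). ADAMTSL2 was low in both libraries with GSK-126, and ADAMTSL3 was slightly high in them by library shares and below vehicle under the alternative scaling (0.763, 0.677 to 0.860). The 250 bases before the start that RefSeq's promoter table lists for 4 genes with different outcomes follow in GRCh38.p14 sequence, 5′ to 3′ on the gene's strand, with CG dinucleotides and the AP-1 motif TGANTCA in capitals. They are ADAMTSL2 (lower; chr9:133534454-133534703, plus strand), ADAMTSL3 (not called; chr15:83653873-83654122, plus strand), ADAMTS20 (higher; chr12:43552204-43552453, minus strand) and MMP7 (lower; chr11:102530748-102530997, minus strand).
ADAMTSL2: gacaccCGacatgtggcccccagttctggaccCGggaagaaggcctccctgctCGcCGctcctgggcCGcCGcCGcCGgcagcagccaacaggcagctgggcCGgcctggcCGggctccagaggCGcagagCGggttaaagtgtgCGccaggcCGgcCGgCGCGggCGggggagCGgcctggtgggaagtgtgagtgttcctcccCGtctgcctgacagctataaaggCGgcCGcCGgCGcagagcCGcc
ADAMTSL3: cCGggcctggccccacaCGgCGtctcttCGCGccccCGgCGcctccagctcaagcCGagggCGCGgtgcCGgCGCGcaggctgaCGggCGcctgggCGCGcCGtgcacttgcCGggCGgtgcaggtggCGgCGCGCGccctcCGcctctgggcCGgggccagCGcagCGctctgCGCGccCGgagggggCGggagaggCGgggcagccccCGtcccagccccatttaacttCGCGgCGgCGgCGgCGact
ADAMTS20: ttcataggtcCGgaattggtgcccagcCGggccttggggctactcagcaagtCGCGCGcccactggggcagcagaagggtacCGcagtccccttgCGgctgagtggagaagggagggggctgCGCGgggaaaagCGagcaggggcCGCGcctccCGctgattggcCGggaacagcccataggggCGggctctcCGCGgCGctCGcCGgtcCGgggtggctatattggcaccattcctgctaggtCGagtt
MMP7: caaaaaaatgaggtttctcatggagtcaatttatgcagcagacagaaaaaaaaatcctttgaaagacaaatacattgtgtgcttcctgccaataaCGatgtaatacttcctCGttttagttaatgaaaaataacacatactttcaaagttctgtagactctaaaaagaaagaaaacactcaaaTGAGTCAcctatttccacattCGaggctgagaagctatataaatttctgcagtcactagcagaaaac

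The ADAMTSL2, ADAMTSL3 and ADAMTS20 windows lie inside H3K27me3 intervals over all 250 bases and hold 25, 40 and 22 CG dinucleotides. The MMP7 window holds 3 CG dinucleotides and 1 TGANTCA match and lies in no interval, so the MMP7 signal comes from intervals to its sides. The listed ADAMTSL2 start lies 2.54 kb inside the RefSeq span of the gene, while the other 3 windows end at the span's edge, as do 40 of the 50 windows in all. A promoter rich in CG thus occurred with a fall, with no call and with a rise. Of the 72 genes, 50 had a promoter in the RefSeq table, and the median window held 19.5 CG dinucleotides, against 13 for all genes with an interval and 11 for all 26246 autosomal promoters. Of the 11 measured genes with at most 11 CG dinucleotides, the median of all autosomal promoters, 5 were lower with GSK-126, against 36.8% of all such genes. Of the 30 above it 11 were lower, against 50.5%. The motif TGANTCA, which reads the same on both strands, occurred in 3 of the 50 windows (6%) and in 6.56% of all autosomal promoters. The retinoic acid receptor repeat of AGGTCA, any 5 bases and AGGTCA, searched on both strands, occurred in 0 of 50 windows and in 1 of 26246. TATAAA, on either strand, occurred in 12 (24%), against 11.2% of all promoters. These are matches of letters in a short window.

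The genes called lower with GSK-126 were mostly short. The 3 length classes used here were set after the values were seen. Of the 22 measured genes with a RefSeq span of up to 50 kb, 16 (72.7%) were lower, against 44.7% of all genes of that length. Of the 10 genes from 50 to 150 kb, 7 (70%) were lower, against 45.4%. Of the 27 genes above 150 kb, 4 (14.8%) were lower, against 31.2% of all genes of that length. The medians were -1.33, -1.32 and -0.58 on the log2 scale for these genes and -0.87, -0.90 and -0.60 for all genes. The 4 long genes that were lower were COL26A1, COL27A1, COL19A1 and ADAMTS16, and the long genes with ratios near 1 included COL24A1, COL23A1, COL25A1, COL11A1 and ADAMTS19. With the combination against vehicle, 15 of 22, 7 of 10 and 3 of 27 were lower, against 37.1%, 34.6% and 21.8% of all genes. With fenretinide the medians were -0.48, -0.28 and -0.12, against -0.18, -0.17 and -0.08. These comparisons share the vehicle library. Another scaling moves every gene by the same amount, so the differences between medians do not depend on it. The genes of up to 150 kb called lower with GSK-126 include COL16A1, MMP25 and MMP27. These were included only through peaks in the vehicle and fenretinide libraries, so the counts are partly set by the rule. The same rule chose the intervals of all genes. The difference between length classes was not tested, and the number of genes in each is small.

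**Figure D3:**
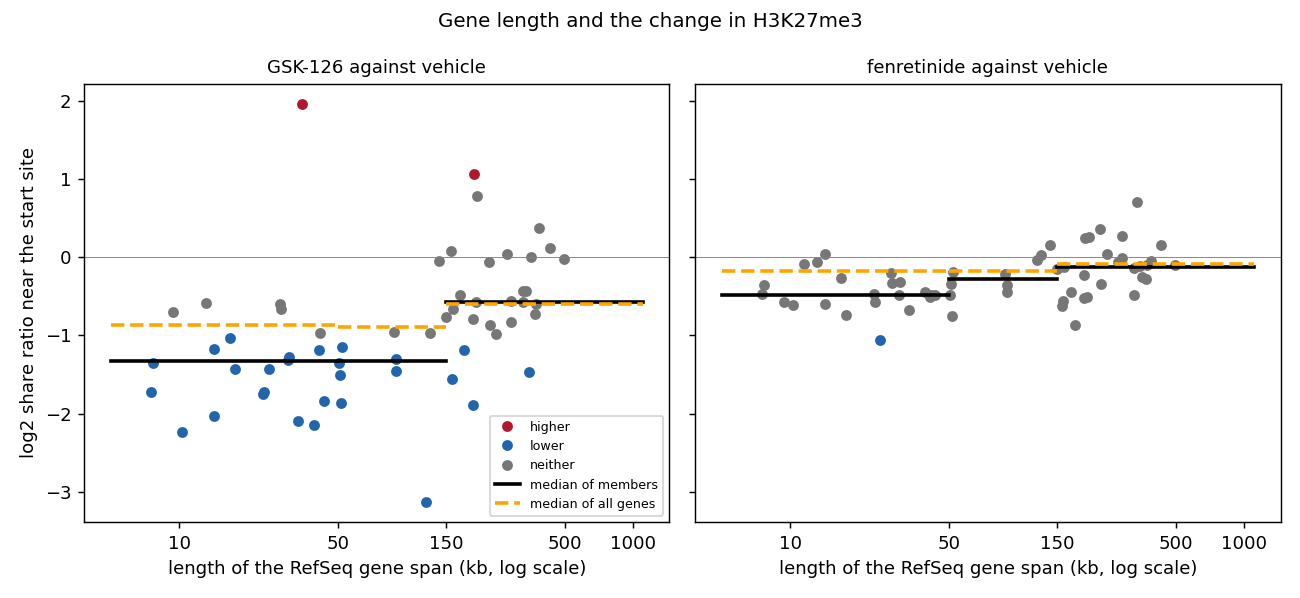
Log2 ratio near the start site against the length of the RefSeq gene span (log axis) for the 59 measured genes, with GSK-126 (left) and fenretinide (right) against vehicle; black lines are medians of these genes in each length class and dashed lines those of all genes. With GSK-126 the medians are -1.33 up to 50 kb, -1.32 from 50 to 150 kb and -0.58 above 150 kb.

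Many of these genes carry the mark along their body, which was summed as the intervals with midpoints inside the RefSeq span that are not near the start site. With GSK-126, 38 genes had at least 50 fragments there, and 9 were lower and 0 higher, against 29.1% lower and 20.9% higher for all genes. In 36 genes with both measures, the body ratio was above the start-site ratio in 22 (61.1%), against 57.6% of all genes. COL26A1 was low in both, with 4171 body fragments with vehicle and 1264 with GSK-126 (0.321, 0.302 to 0.342). COL16A1 gave 336 and 62 body fragments (0.196, 0.147 to 0.257). COL23A1 was split: its start-site ratio was 1.00, while its body fell from 6930 fragments to 3158 (0.483, 0.463 to 0.504). The start-site value of COL23A1 sums 1 interval that went from 1105 to 954 fragments and another that went from 3 to 96. ADAMTS20 was split the other way, with 2.09 at the start and 1092 against 1124 fragments in the body (1.09, 1.00 to 1.19). ADAMTS9-AS2 had the highest body ratio, 1.64 (1.51 to 1.79), below the 2-fold limit.

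**Figure D4:**
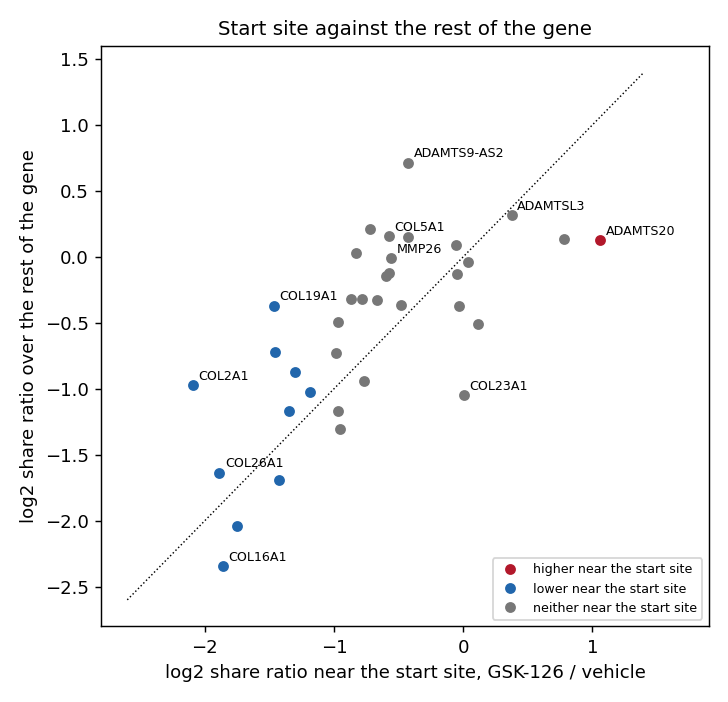
Log2 ratio of GSK-126 over vehicle near the start site (x) and over the rest of the gene (y) for the 36 genes measured in both, coloured by the start-site call, with the line of equal change. Points above the line, 22 of the 36, had a higher ratio along the body; COL23A1 lies well below it.

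Of the 88 listed autosomal genes of these families, 18 had no consensus interval tied to a peak centre within 10 kb of their start, and 6 of these had at least 50 fragments along the gene with GSK-126 and vehicle together. With GSK-126, 5 of the 6 were higher and 1 lower, beside 57.3% and 15.4% of all such genes, so the direction was that of the background. ADAMTS6 gave 63 fragments in the vehicle library, 523 after GSK-126, 122 after fenretinide and 418 after both drugs (ratio with GSK-126 8.80, 6.77 to 11.6). COL18A1, the source of endostatin, gave 18, 120, 19 and 77 (7.07, 4.29 to 12.3). COL18A1 reached the minimum only through its fragments in the GSK-126 library, where it is high, so its ratio is a description. MMP16, a membrane-type MMP, gave 60, 281, 90 and 297 (4.97, 3.75 to 6.68). COL8A1 gave 73, 278, 97 and 239 (4.04), and COL5A2 gave 251, 598, 316 and 632 (2.53). Under the alternative scaling COL5A2 was at 1.49 and the others between 2.38 and 5.18. In these 5 genes both libraries with GSK-126 were high and both without it were low. The lower gene was ADAMTS13, the protease of von Willebrand factor, with 462, 120, 373 and 127 fragments (0.275, 0.223 to 0.337).

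Fenretinide alone changed few of these genes beyond 2-fold. Of 59 genes measured, 1 was lower and 0 higher, beside 1.54% and 0.289% of all genes. The lower gene was COL9A3, a chain of the cartilage collagen type IX, with 72 fragments with vehicle and 38 with fenretinide (0.478, 0.314 to 0.717). Its value with GSK-126 was 25 and with the combination 30, so vehicle alone was high. Smaller differences were frequent, since the 95% interval lay below 1 for 32 genes and above 1 for 3, beside 36% and 8.4% of all genes. The median was -0.32 against -0.16 for all genes. COL2A1 (0.627, 0.558 to 0.704), COL1A1 and ADAMTS8 (0.671, 0.588 to 0.766) were among those below 1. The alternative scaling gave 2 lower and 0 higher, beside 2.69% and 0.155%. The highest ratio was 1.65 (1.06 to 2.60) for COL21A1, from 33 to 60 fragments.

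With the combination against vehicle, 25 of 59 genes were lower and 1 higher, beside 33.5% and 9.48% of all genes. The median was -0.78, against -0.67 for all genes. By the alternative scaling 45 were lower and 0 higher, beside 70.1% and 4.99%. Among genes with at least 100 fragments, MMP28 (0.238, 0.207 to 0.273), ADAMTSL2 (0.260, 0.227 to 0.297) and COL8A2 (0.249, 0.159 to 0.377) had the deepest falls by the bound nearest to 1. COL16A1, with 63 and 11 fragments, was at 0.189 (0.0899 to 0.362), and COL6A2 was the gene called higher (2.49, 1.44 to 4.45). For both genes the limit of inclusion given above applies. ADAMTS15, not called with GSK-126 alone, was at 0.495 (0.399 to 0.610), while COL19A1 was at 0.636 (0.504 to 0.8) and was not called. With both drugs the membrane-type MMPs were again 3 of 3 lower, with the limit for MMP25 given above, and the transmembrane collagens 0 of 3.

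Adding fenretinide to GSK-126 gave no call among 54 genes measured, 0 higher and 0 lower, beside 0.426% and 0.487% of all genes. The median was 0.09, against 0.08 for all genes, and its sign depends on scaling: it was -0.04 with DESeq2 size factors and -0.03 with TMM factors. The interval lay above 1 for 10 genes and below 1 for 4, beside 21% and 10.9% of all genes. COL19A1, with 70 fragments with GSK-126 and 121 with the combination, had the highest ratio, 1.77 (1.31 to 2.41). COL2A1 (1.71) and COL26A1, with 364 and 500 fragments (1.4, 1.22 to 1.61), were also above 1. The alternative scaling gave 0 higher and 0 lower, beside 0.297% and 0.578%. ADAMTS20 (0.729, 0.618 to 0.858) and COL6A2 (0.627, 0.424 to 0.917), the 2 genes higher with GSK-126, were below 1. These ratios and those of GSK-126 against vehicle share the GSK-126 library, on opposite sides of the ratio. A value below 1 for genes high in that library, or above 1 for genes low in it, is thus partly set in advance. MMP28 (1.06, 0.884 to 1.27) and MMP9 (1.06, 0.980 to 1.15) were near 1.

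Adding GSK-126 to fenretinide, a comparison added after the data were seen, lowered 11 of 59 genes and raised 1, beside 19.2% and 9.19% of all genes. The median was -0.56 against -0.50. The alternative scaling gave 37 lower and 1 higher, beside 60.4% and 4.66%. MMP28 (0.325, 0.281 to 0.374) and ADAMTSL2 (0.363, 0.315 to 0.416) were again low. COL6A2 was the gene higher, with 11 fragments with fenretinide and 46 with the combination (5.01, 2.55 to 10.7). The limit of inclusion given above for COL6A2 applies here too. It also reached the minimum only through its fragments in the combination library, where it is high, so this ratio is a description. ADAMTS3 was lower here (0.425, 0.294 to 0.604), with 124 fragments with fenretinide and 44 with the combination.

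Matrix genes outside these families, listed by role from assembly factors, cross-linkers, inhibitors, laminins, proteoglycans and adhesive proteins, were counted beside them. With GSK-126, 19 of 39 measured were lower and 3 higher, beside 42.1% and 11.1% of all genes; BCAN and HAPLN2 share 1 interval and count as 2 of the 19. TNXB, a tenascin, had the lowest ratio with 56 vehicle fragments and 10 with GSK-126 (0.189, 0.0861 to 0.375). FBN2, a fibrillin of developing tissue, had the highest with 42 and 164 (4.14, 2.93 to 5.96). TNXB reached the minimum through its vehicle fragments and FBN2 through its fragments in the GSK-126 library, where each is high. Both ratios are therefore descriptions. With fenretinide 0 of 42 were called, with the combination 13 of 42 were lower and 2 higher (33.5% and 9.48% of all genes), and between the combination and GSK-126 1 of 36 was higher and 0 lower.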

How the data were processed

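H3K27me3 ChIP-seq libraries of T24 cells were analysed, 1 per condition. The deposited count table, made by the authors with featureCounts 2.0.1 at a minimum overlap of 0.2 per the file headers, holds raw fragment counts in 273664 consensus intervals on GRCh38. Per the submitters' processing notes, MACS2 2.1.0 was used, and per the file headers the authors annotated each library's peaks with HOMER; the scale of the deposited peak score is not stated, and the score served for 1 alternative only. The aligner is not given in the sources used here.

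Fragments were summed over intervals overlapping any peak named for a gene within 10 kb of its start. Ratios of library shares carry exact Clopper-Pearson 95% intervals; log2 values use a pseudocount of 0.5. Depth was 15812933 to 18928836 interval fragments, so genes under 50 fragments were not called and intervals cover counting error only. Alternatives were TMM factors from edgeR 4.0.16, size factors from DESeq2 1.42.0, scaling on the 25% of intervals with the fewest fragments per kb, other minimums, ratios, distances, peak scores and overlaps, members sharing no interval, members with a peak in every library, and gene spans, the last 3 chosen after the data were seen. Python 3.11.15, scipy 1.17.1 and R 4.3.3 were used. Promoters and gene spans came from RefSeq (GRCh38.p14); 22 genes had no promoter entry. COL4A5 and COL4A6, on chromosome X, were left out, and ADAMTSL6, which RefSeq names THSD4, was not searched. Members and role lists were chosen with earlier results of these data known. Genes were named by rule: per comparison the 10 largest falls and rises with at least 100 fragments, the 5 densest vehicle signals, the extremes of each role group and a list of well-known members; further genes were named after their values were seen.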

Additional observations from a re-analysis of the deposited data

How the results depend on the processing

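No paired analysis was possible because each condition had 1 library, and for the same reason no library could be left out. Counts below are genes higher or lower among these families. Shares of all genes under background scaling are given above. Those at other minimums, ratios, distances and peak scores, and for members sharing no interval, were not counted, so these counts are descriptions. With background scaling, GSK-126 gave 1 higher and 48 lower (median -1.73), fenretinide 2 lower (-0.46), the combination 0 higher and 45 lower (-1.59), and the combination against fenretinide 37 lower (-1.24). For the combination against GSK-126, DESeq2 and TMM factors each gave 1 lower, beside 0.745% and 0.738% of all genes, with medians of -0.04257 and -0.02527. With no minimum, fenretinide gave 1 higher and 3 lower, and 4, 1 and 4 were higher with the combination against vehicle, GSK-126 and fenretinide. With a minimum of 100, GSK-126 gave 1 higher, the combination 0, and the combination against fenretinide 0 higher and 7 lower. At a ratio of 1.5, GSK-126 gave 41 lower, fenretinide 1 higher and 7 lower, the combination 2 and 38, the combination against GSK-126 2 and 2, and against fenretinide 2 and 29. Within 2 kb of the start, GSK-126 gave 1 higher, the fenretinide median was -0.46, the combination against GSK-126 gave 1 higher, and against fenretinide 0 higher and 7 lower. With peaks at or above the median score, fenretinide gave 0 lower. Members sharing no interval gave 17 lower with GSK-126, 15 with the combination and 7 against fenretinide, of 42 genes measured. The 38 members with a peak in every library gave 1 higher and 14 lower with GSK-126, 0 lower with fenretinide, 0 higher and 13 lower with the combination, and 0 and 6 against fenretinide. Their share lower with GSK-126 was 36.8%, beside 34% of all genes with such peaks, and 45.8% for the 59 members measured. Over gene spans, GSK-126 gave 0 higher and 17 lower of 50 (-0.60), beside 1207 higher and 2403 lower of all 6820 genes (-0.59). Fenretinide gave 0 lower of 51 (-0.15), beside 118 of 6571 (-0.11). The combination gave 1 higher of 48 against GSK-126, beside 25 of 6573, and 2 of 51 against fenretinide, beside 1029 of 6744. COL12A1 turned from lower to 2.128 with the combination against fenretinide over its span. The cause of these changes was not tested. The other 135 counts and medians stayed within 1.5 times or within the interval of the median.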

Other observations

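Stretches that hold 2 neighbouring genes of these families gave ratios on both sides of 1. The fragments are sums over each stretch and do not compare its 2 genes. COL3A1 had no interval centred in its gene, while the stretch that holds COL3A1 and COL5A2 on chromosome 2 gave 261, 621, 338 and 651 fragments (ratio with GSK-126 2.52, 2.18 to 2.93). Under the alternative scaling above, this ratio was 1.48 (1.28 to 1.72), short of 2-fold. Fragments are given for vehicle, GSK-126, fenretinide and both drugs in that order. The stretch of COL6A1 and COL6A2 on chromosome 21 gave 200, 262, 133 and 190 (1.39, 1.15 to 1.68), and this ratio was 0.817 (0.677 to 0.987) when the intervals with the fewest fragments per kb were equalised. That of ADAMTS8 and ADAMTS15 gave 1253, 487, 1050 and 492 (0.412, 0.370 to 0.458).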
